A study of Mus musculus with 8 samples.

Results

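Nodal signalling sets the left-right axis of the vertebrate embryo, and the 6 genes described here are its ligands, co-receptor and secreted inhibitors: Nodal, Gdf1, Cfc1, Lefty1, Lefty2 and Dand5. They were chosen by name, and every non-control array probe whose RefSeq accession belongs to one of these symbols was taken. This gave 7 probes for 6 genes, out of 20660 gene symbols with a probe. The levels come from 8 whole-embryo arrays, each hybridised with the RNA of 1 embryo at embryonic day 8.5 (E8.5), and the question put to them was whether a wild-type embryo differs according to the genotype of its father. All 8 embryos were wild-type, and all mothers were wild-type mice, C57bl6/129 by the labels, while the study's own account of this comparison names a different background for them. The WT father group (n = 4) was sired by wild-type males of the Eedl7Rn5-1989SB C57bl6/129 line. The HET father group (n = 4) was sired by males of that line that were heterozygous for the hypomorphic allele of Eed, a core subunit of Polycomb Repressive Complex 2 (PRC2). Embryos were matched for stage by the submitters. In the WT father group replicates 1 and 3 were female and 2 and 4 male, and in the HET father group replicates 2 and 4 were female and 1 and 3 male. The labels do not give the number of fathers. The study's breeding plan names 2 wild-type males and 3 heterozygous ones, so that some embryos of a group may share a father. Replicates 2, 3 and 4 of the WT father group share the first part of their embryo code, which may mark a litter. Over the tested probes the estimated correlation within a code was 0.539, which rests on this group, where only replicate 1 has another code. The p-values may therefore measure a spread smaller than that between litters or fathers.

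In the mouse, cilia at the node drive a leftward flow of fluid, and this flow lowers the transcript of Dand5, which encodes an inhibitor of Nodal, on the left side of the node. Nodal, made at the node as a heterodimer with Gdf1, then switches on its own gene in the left lateral plate mesoderm with the help of the co-receptor Cfc1 (Cryptic). There it turns on Lefty2, while Lefty1 at the midline keeps the signal from crossing to the right. The side-restricted expression of Nodal and Lefty2 is brief and falls within early somite stages. An array of a whole embryo sees neither side nor place, and a lower level in such a sample cannot tell apart fewer expressing cells and less RNA per cell.

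Levels are given as log2 of the background-subtracted signal relative to the 75th percentile of the array (0 is the signal at that percentile, and a step of 1 is a 2-fold change). Probes differ in how well they hybridise, and levels are therefore compared between embryos and not between genes. All 6 genes had a probe that was well above background on 8 of 8 arrays, which was therefore tested. The arrays themselves were not alike. In WT father replicate 1 and HET father replicate 3 the median probe lay at -3.63 and -3.04, against -4.36 to -4.08 in the other 6 embryos, and 39545 and 38888 probes were well above background, against 29204 to 35499. The lowest signal still called well above background was -5.94 to -5.63 in the WT father group. In the HET father group it was -5.39 to -4.55, highest in replicate 3. The median of the negative control spots was -8.14 to -7.81 and -7.57 to -6.74, so that the groups overlapped in neither measure. Each group had its own slide for all 4 arrays, so that an effect of the slide and one of the father cannot be told apart. Replicate spots of one probe within an array differed by an SD of 0.17 to 0.32 at levels of -5 to -4, 0.081 to 0.16 at -4 to -2, and 0.031 to 0.040 at 2 to 4. This covers the error of spotting and reading within 1 array only, not that of labelling or of separate arrays.

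Nodal, the ligand that gives the pathway its name, was detected in every embryo, with a range that depended on the scaling: 0.47 as scaled here, 1.44 with the arrays aligned on their medians, 1.48 after quantile normalization, and 0.87 after normexp background correction of the median spot signal followed by quantile normalization. In the WT father group it measured -3.24, -3.45, -3.29 and -3.05 in replicates 1 to 4. In the HET father group it measured -3.33, -2.98, -3.27 and -3.08. The highest embryo, HET father replicate 2, exceeded the lowest, WT father replicate 2, 1.39-fold, and the groups overlapped. The mean was -3.26 ± 0.17 (SD, n = 4) in the WT father group and -3.16 ± 0.16 (SD, n = 4) in the HET father group. The difference of 0.09 (HET father minus WT father, SE 0.12, 95% confidence interval -0.18 to 0.37) did not pass the test (limma, adjusted p = 0.9998), and it was -0.009, -0.14 and -0.11 under those other 3 scalings.

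Gdf1, the TGF-beta family ligand that pairs with Nodal, had the smallest range of the 6 genes over the embryos as scaled here, 0.38, against 1.42 with the arrays aligned on their medians, where that of Dand5 was smallest (0.43). Its first probe, which matches transcript NM_008107, measured 3.43, 3.47, 3.47 and 3.73 in WT father replicates 1 to 4 and 3.36, 3.49, 3.48 and 3.65 in HET father replicates 1 to 4. Replicate 4 was the highest embryo of either group, and the highest embryo exceeded the lowest 1.30-fold. The father difference was -0.03 (SE 0.10, 95% confidence interval -0.26 to 0.20, limma, adjusted p = 0.9998), with means of 3.52 ± 0.14 and 3.49 ± 0.12 (SD, n = 4) in the WT father and HET father groups. A second probe, for transcript NM_001163282, behaved otherwise. It was well above background on 1 of 8 arrays, WT father replicate 4 (-5.01), and measured -6.64 to -5.54 on the other 7, so that it was left out of the tests and no fold between the groups can be given for it. The 2 probes are named for 2 transcripts of the same gene and their readings are not levels of one RNA. The sequence of neither probe was at hand, and where each lies on the gene was not analysed here.

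Gdf1 shares its locus with Cers1, a ceramide synthase gene. RefSeq (GRCm38.p6) lists a pair of start sites for Gdf1, and the first is also the start of Cers1: the promoter windows of both genes are identical over 300 of 300 bases. A probe for Gdf1 may therefore also read a transcript that carries both genes, and no probe of the array is assigned to Cers1 by accession. The windows are shown because Gdf1 has a pair of starts and a pair of probes with different readings, though which start gave either reading was not tested. That of Cfc1 is set beside them for the relation of its level to that of Gdf1, which as scaled here did not pass adjustment and rests on 2 embryos. Lower case marks the 250 bases before the start and capitals the 50 bases from the start on, each written 5′ to 3′ on the plus strand of GRCm38.p6.
Gdf1, first start, chr8:70315525-70315824: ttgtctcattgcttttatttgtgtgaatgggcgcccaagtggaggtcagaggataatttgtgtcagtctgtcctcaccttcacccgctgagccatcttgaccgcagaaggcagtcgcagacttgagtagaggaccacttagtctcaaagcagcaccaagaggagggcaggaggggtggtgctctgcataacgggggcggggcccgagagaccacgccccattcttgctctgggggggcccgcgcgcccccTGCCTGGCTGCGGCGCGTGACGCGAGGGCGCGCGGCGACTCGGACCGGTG
Gdf1, second start, chr8:70329515-70329814: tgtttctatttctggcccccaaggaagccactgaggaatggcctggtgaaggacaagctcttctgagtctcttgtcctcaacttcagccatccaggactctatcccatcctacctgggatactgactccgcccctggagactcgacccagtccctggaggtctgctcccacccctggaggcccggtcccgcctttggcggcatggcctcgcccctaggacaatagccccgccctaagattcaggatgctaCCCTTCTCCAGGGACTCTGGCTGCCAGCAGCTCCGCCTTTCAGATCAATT
Cfc1, chr1:34535398-34535697: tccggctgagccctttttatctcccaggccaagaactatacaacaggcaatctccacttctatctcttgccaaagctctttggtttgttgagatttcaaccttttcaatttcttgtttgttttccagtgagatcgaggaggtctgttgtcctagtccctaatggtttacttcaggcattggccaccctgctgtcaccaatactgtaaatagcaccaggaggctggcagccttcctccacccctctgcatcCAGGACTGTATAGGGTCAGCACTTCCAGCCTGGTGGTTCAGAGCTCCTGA
The first Gdf1 window holds 22 CG dinucleotides and its second holds 8, against 2 in that of Cfc1 and a median of 7 over all 32851 promoter windows of the table. A FOXH1 motif, AATCCACA on either strand, occurs in 0.855% of all windows and in none of those of Gdf1, Cfc1, Nodal and Dand5, the 4 members the table holds. FOXH1 is the DNA-binding partner of SMAD2 and SMAD3 in Nodal responses, and the letters of this window say nothing of more distant enhancers.

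Cfc1, the EGF-CFC co-receptor that cells need to receive Nodal, varied more than either ligand as scaled here, with a range of 1.24, while after quantile normalization its range was 1.22 and that of Nodal 1.48. In the WT father group it measured 0.51, 0.96, 1.24 and 1.60 in replicates 1 to 4. In the HET father group it measured 0.96, 1.01, 0.87 and 1.75. WT father replicate 4 and HET father replicate 4 stood above the other 6 embryos, and WT father replicate 1 lay lowest, 2.35-fold below the highest. The groups spanned nearly the same range, with means of 1.08 ± 0.46 and 1.14 ± 0.41 (SD, n = 4). The father difference was 0.07 (SE 0.28, 95% confidence interval -0.59 to 0.72, limma, adjusted p = 0.9998). Without HET father replicate 4 the difference was -0.14, and without WT father replicate 1 it was -0.12.

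**Figure D1:**
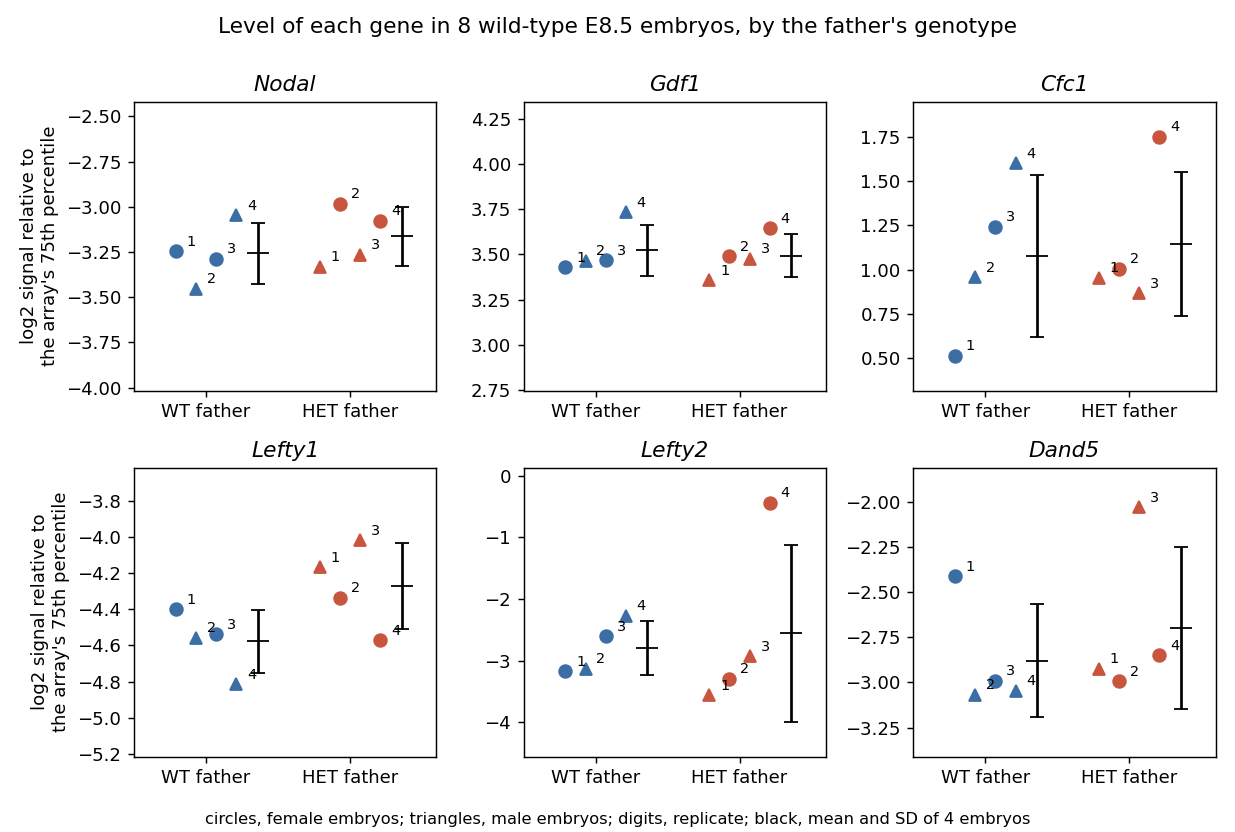
Level of each of the 6 genes in each embryo, as log2 signal relative to the 75th percentile of the array, with the mean and SD of each father group (n = 4); circles are female and triangles male embryos. The groups overlap for every gene, and HET father replicate 4 stands above all other embryos for Lefty2 at -0.44.

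Lefty2 had the widest range of the 6 genes under each of the 4 normalizations, from 2.54 to 3.75. This inhibitor, which binds Nodal and its co-receptors and is induced by Nodal in the left lateral plate, measured -3.17, -3.13, -2.61 and -2.27 in WT father replicates 1 to 4. In HET father replicates 1 to 3 it measured -3.56, -3.29 and -2.93, and in HET father replicate 4 it measured -0.44. This single female embryo was 6.47-fold above the median of the other 7 and 3.57-fold above the next highest, WT father replicate 4. The group means were -2.80 ± 0.43 and -2.56 ± 1.43 (SD, n = 4), and the father difference of 0.24 (SE 0.67, 95% confidence interval -1.33 to 1.82) did not pass the test (limma, adjusted p = 0.9998). Without HET father replicate 4 it turned to -0.46. The interval takes in 2-fold changes in both directions, so that a difference of that size in Lefty2 was not detectable with these embryos.

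The local background around the spots was also high on the array of HET father replicate 4, with a median of 133, where the slide's remaining 3 arrays had 30 to 32. The part of this background in the Lefty2 reading was not tested. On this array the other inhibitors did not stand out: Lefty1 ranked 7 and Dand5 ranked 3 from the top among the 8 embryos. Nodal ranked 3 and Gdf1 ranked 2, while Cfc1 ranked 1.

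Lefty1, the midline inhibitor, was measured nearest to background of the 6 tested probes, between 0.45 and 1.38 above the lowest signal called well above background on its array. It measured -4.40, -4.56, -4.54 and -4.81 in WT father replicates 1 to 4. In HET father replicates 1 to 4 it measured -4.17, -4.34, -4.02 and -4.57. HET father replicates 1 to 3 lay above all 4 embryos of the WT father group, while replicate 4 lay below 3 of them. The means were -4.58 ± 0.17 and -4.27 ± 0.24 (SD, n = 4). Among the 6 genes its father difference, 0.30 (SE 0.14, 95% confidence interval -0.03 to 0.64), had the smallest p-value, 0.0669 before adjustment, and did not pass the test (limma, adjusted p = 0.9998). It was 0.10 after quantile normalization and 0.04 after normexp with quantile normalization, and thus moved by more than 1.5 times with the processing. The lowest signal called well above background was also higher on every HET father array, and the part of this in the Lefty1 difference was not tested.

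Dand5, the inhibitor made at the node, measured -2.41, -3.07, -2.99 and -3.05 in WT father replicates 1 to 4 and -2.92, -2.99, -2.03 and -2.85 in HET father replicates 1 to 4. One embryo of each group stood above the rest. WT father replicate 1 was 1.49-fold and HET father replicate 3 was 1.95-fold above the median of the other 7 embryos. These are the pair of arrays whose median signal was highest and on which most probes were well above background, and the part of this in the Dand5 reading was not tested. With the arrays aligned on their medians instead, the deviation of HET father replicate 3 from the median of all 8 embryos was -0.20 for Dand5, against 0.93 as scaled here. After quantile normalization it was 0.46, and after normexp with quantile normalization 0.36. In both this embryo was the highest, with WT father replicate 1 next at 0.30 and 0.21. The father difference was 0.18 (SE 0.25, 95% confidence interval -0.41 to 0.77, limma, adjusted p = 0.9998), and without HET father replicate 3 it was -0.04.

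Over the 6 genes, 5 were higher and 1 was lower in the HET father group, with a median difference of 0.14, and 0 passed the test, while Nodal and Cfc1 turned lower with the arrays aligned on their medians and Nodal also with quantile normalization. Before adjustment 0 of 6 had p under 0.05, where 4.35% of all 33095 tested probes did. The groups did not overlap for 0 of 6 genes, against 3.16% of all probes. At an adjusted p under 0.01 and at least 2-fold, 0 of the 33095 probes were called between the father groups (0%), with 1440 at an unadjusted p under 0.05. The 95% confidence intervals lie within 2-fold for Nodal, Gdf1, Cfc1, Lefty1 and Dand5, and reach beyond it for Lefty2. With WT father replicate 1 and HET father replicate 3 both left out, the differences were 0.13 for Nodal, -0.06 for Gdf1, -0.03 for Cfc1, 0.28 for Lefty1, 0.24 for Lefty2 and 0.11 for Dand5.

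**Figure D2:**
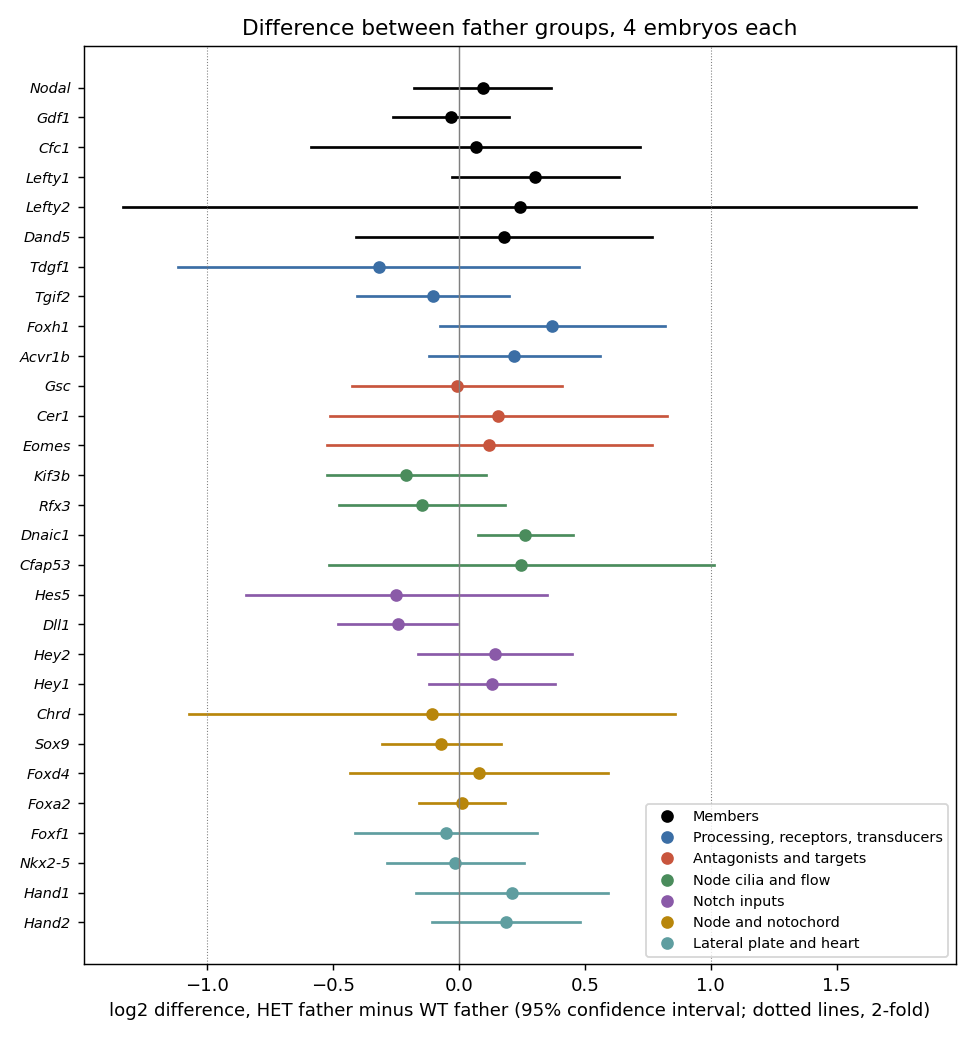
Difference between the father groups (HET father minus WT father, log2) with its 95% confidence interval for the 6 genes and for genes of the wider pathway, named as the largest differences of each list in each direction; dotted lines mark 2-fold. The interval of Lefty2, -1.33 to 1.82, is the widest. That of Dnaic1 (difference 0.26) lies above 0 and that of Dll1 (-0.24) below it, and neither gene passes the test after adjustment.

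The wider pathway was read from 6 lists of 68 genes, of which 66 had a probe and 62 were tested. None was called between the father groups. Of the 62, 2 (3.23%) had an unadjusted p under 0.05, against 4.18% of the 15379 genes with a tested probe. In the HET father group 36 (58.1%) were higher, against 57.1% of those 15379 genes. The list medians ran from -0.07 to 0.08, and from -0.18 to -0.02 with the arrays aligned on their medians, which moved the median of all probes by -0.10. Among the genes that process Nodal, receive it or carry the signal inward, 11 of 14 tested were higher and 3 lower, with a median of 0.03 against 0.02 for all genes. The largest differences here were 0.37 (SE 0.19) for Foxh1, which encodes the DNA-binding partner of the SMADs, and -0.32 (SE 0.34) for Tdgf1, the other EGF-CFC co-receptor (Cripto), and neither passed the test (limma, adjusted p = 0.9998 for both). Acvr1b, a type I receptor of Nodal, differed by 0.22 (SE 0.15) and Tgif2, a repressor of SMAD targets, by -0.10 (SE 0.13). The signal transducers themselves were even: Smad2 differed by 0.03 (SE 0.06), Smad3 by 0.02 (SE 0.09) and Smad4 by 0.02 (SE 0.08). Acvr1c, another type I receptor, was well above background on 0 of 8 arrays.

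Of the antagonists and targets outside the 6 genes, 5 of 6 tested were higher and 1 lower, with a median of 0.08. Cer1, a secreted Nodal antagonist of the gastrula, differed by 0.16 (SE 0.29). Eomes, a T-box factor of early mesoderm, differed by 0.12 (SE 0.28) and Gsc, a homeobox gene of the organizer, by -0.01 (SE 0.18). In HET father replicate 4, where Lefty2 was highest, Cer1 (-2.50) was the lowest of the 8 embryos.

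Genes of node cilia, flow and flow sensing split evenly, with 8 of 16 tested higher, 8 lower and a median of 0.01. The axonemal dynein gene Dnaic1 had the largest difference of this list. It ranged from -1.52 to -1.28 in the WT father group and from -1.16 to -0.99 in the HET father group, without overlap. Its difference of 0.26 (SE 0.08) had an unadjusted p of 0.0126 and did not pass the test (limma, adjusted p = 0.9998). It was the only one of the 62 pathway genes whose groups did not overlap, a smaller share than the 3.16% of all probes. Cfap53, a cilia gene needed for laterality, differed by 0.25 (SE 0.33) near background, Kif3b, a kinesin motor of cilia, by -0.21 (SE 0.14), and Rfx3, a transcription factor of ciliary genes, by -0.15 (SE 0.14). Dnah5 was not above background on any array and Noto, a node transcription factor, was above it on 3 of 8. In the list of genes of the Notch pathway, which acts on Nodal at the node, 2 of 8 were higher and 6 lower, with a median of -0.07. Dll1, a Notch ligand, differed by -0.24 (SE 0.10, unadjusted p 0.0445) and Hes5, a Notch target, by -0.25 (SE 0.26), while Hey1 and Hey2, other Notch targets, differed by 0.13 (SE 0.11) and 0.14 (SE 0.13).

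The tested markers of the tissues that express the 6 genes were well above background in every embryo. Of the markers of node, notochord and floor plate, 2 of 8 tested were higher and 6 lower (median -0.01), and Foxa2 (0.01, SE 0.07), Foxd4 (0.08, SE 0.22), Sox9 (-0.07, SE 0.10) and Chrd (-0.11, SE 0.41) were at the ends of the list. Of the markers of lateral plate and heart field, 8 of 10 were higher and 2 lower (median 0.05), from Hand1 (0.21, SE 0.16) and Hand2 (0.19, SE 0.13) to Foxf1 (-0.05, SE 0.15) and Nkx2-5 (-0.01, SE 0.12). The summed linear signal of the lateral plate list, in multiples of the 75th percentile of the array, was 29.1 to 38.3 in the WT father group and 31.6 to 40.3 in the HET father group. That of the node list was 11.9 to 13.5 and 11.9 to 13.0. The ranges of the groups overlapped in both lists.

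Markers of blood, yolk sac and decidua were measured in the same samples, and their levels differed between embryos. The 6 primitive erythroid markers, embryonic globins and their regulators, summed to 469 in WT father replicate 4, to 728 in HET father replicate 4, and to 773 to 1066 in the other 6 embryos. These 2 embryos were also the highest for Gdf1, Cfc1 and Lefty2, and WT father replicate 1, with the highest erythroid sum, was the lowest for Cfc1. The 8 yolk sac endoderm markers summed to 492 in WT father replicate 4 and 615 to 702 in the other 7, with 618 in HET father replicate 4. The part of blood or yolk sac in these levels was not tested. All 6 erythroid and 8 yolk sac markers were well above background in every embryo. All 6 erythroid markers were higher in the HET father group (median 0.19, 0 of 6 at an unadjusted p under 0.05), and without WT father replicate 4 the median was -0.03. Of the yolk sac markers 5 were higher and 3 lower (median 0.03). By group, the erythroid sum was 469 to 1066 for WT father and 728 to 920 for HET father, and the yolk sac sum 492 to 702 and 615 to 645. Of the trophoblast and decidua list 7 of 8 genes had a probe and 6 were tested, of which 0 were higher and 6 lower (median -0.09). In this list 1 of 6 had an unadjusted p under 0.05, against 4.18% of all genes with a tested probe. Its sums were 14.8 to 42.1 and 14.1 to 38.8, and most of each sum came from Gcm1, the brightest gene, at 3.23 to 5.16. In the same list Prl8a2, a prolactin-family gene of decidua, was 1.56 to 2.92 in the WT father group and -2.61 to 0.72 in the HET father group. Its difference of -2.46 (SE 0.75) did not pass the test (limma, adjusted p = 0.9998). Tpbpa was not above background on any array. Markers of an earlier stage, such as Mesp1 and Fgf5, had 1 of 7 higher and 6 lower (median -0.07), and markers of a later stage had 4 of 7 higher and 3 lower (median 0.02). The earlier-stage list summed to 1.67 to 1.82 in the WT father group and 1.37 to 2.02 in the HET father group.

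**Figure D3:**
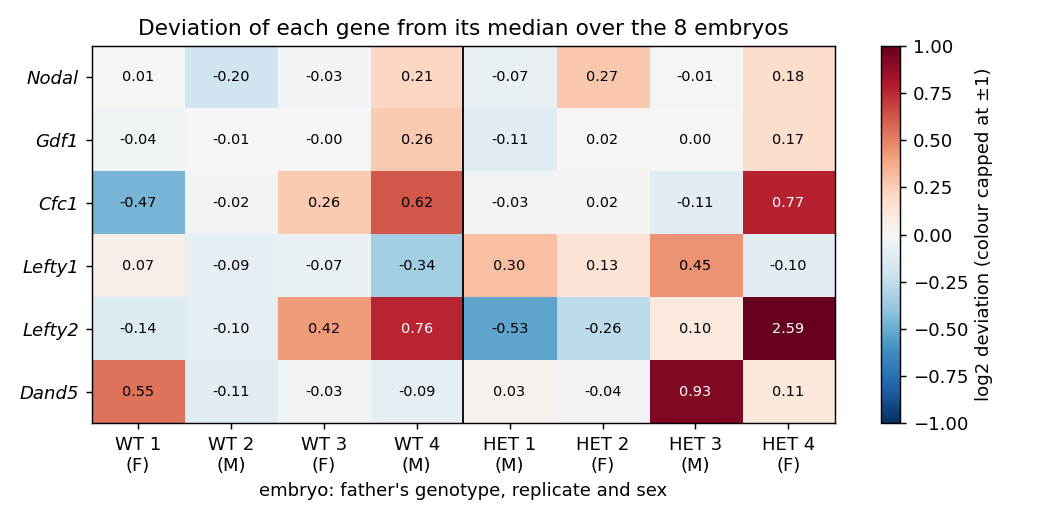
Deviation of each gene from its own median over the 8 embryos (log2, colour capped at 1 in either direction), with embryos in columns by father's genotype, replicate and sex. WT father replicate 4 and HET father replicate 4 are high for Nodal, Gdf1, Cfc1 and Lefty2 and low for Lefty1 (-0.34 and -0.10), and WT father replicate 1 and HET father replicate 3 are high for Dand5.

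The embryos differed from one another in ways the father's genotype did not mark, and the genes were set against each other over the 8 embryos. Of the 15 pairs, 4 had an exact permutation p under 0.05 for Pearson's r and 0 had an adjusted p under 0.05 (Benjamini-Hochberg over the 15). Lefty2 and Cfc1 gave r = 0.81 (exact permutation p = 0.00501, adjusted 0.0751) and Spearman's rho = 0.69 (exact permutation p = 0.0694, adjusted 0.173). Gdf1 and Cfc1 gave r = 0.82 (exact permutation p = 0.0139, adjusted 0.105) and rho = 0.74 (exact permutation p = 0.0458, adjusted 0.173). Both relations rest on WT father replicate 4 and HET father replicate 4: without them r was 0.38 and 0.24. Lefty2 and Gdf1 gave r = 0.72 (exact permutation p = 0.0468, adjusted 0.178) and rho = 0.71 (exact permutation p = 0.0576, adjusted 0.173), with r = 0.62 without the same embryos.

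Lefty1 ran the other way. With Gdf1 it gave r = -0.71 (exact permutation p = 0.0474, adjusted 0.178) and rho = -0.52 (exact permutation p = 0.197, adjusted 0.369), and without WT father replicate 4 and HET father replicate 3 r was -0.70. The sign changed with the scaling, and with the arrays aligned on their medians r between Lefty1 and Gdf1 was 0.70, and after quantile normalization it was -0.23. With deviations taken within each father group, r was 0.81 for Lefty2 and Cfc1, 0.84 for Gdf1 and Cfc1, 0.75 for Lefty2 and Gdf1, and -0.82 for Lefty1 and Gdf1, and 0 pairs had an adjusted p under 0.05. The Lefty2 and Cfc1 relation had an adjusted p of 0.0272 on median alignment, 0.0238 on quantile normalization and 0.0443 after normexp with quantile normalization, against 0.0751 as scaled here. On median alignment, 3 other pairs also had an adjusted p under 0.05: Gdf1 and Cfc1 (r = 0.95, exact permutation, adjusted p = 0.00149), Nodal and Cfc1 (r = 0.91, adjusted p = 0.0210) and Nodal and Gdf1 (r = 0.97, adjusted p = 0.0254). Without WT father replicate 1 and HET father replicate 3 these were 0.95, 0.47 and 0.30.

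**Figure D4:**
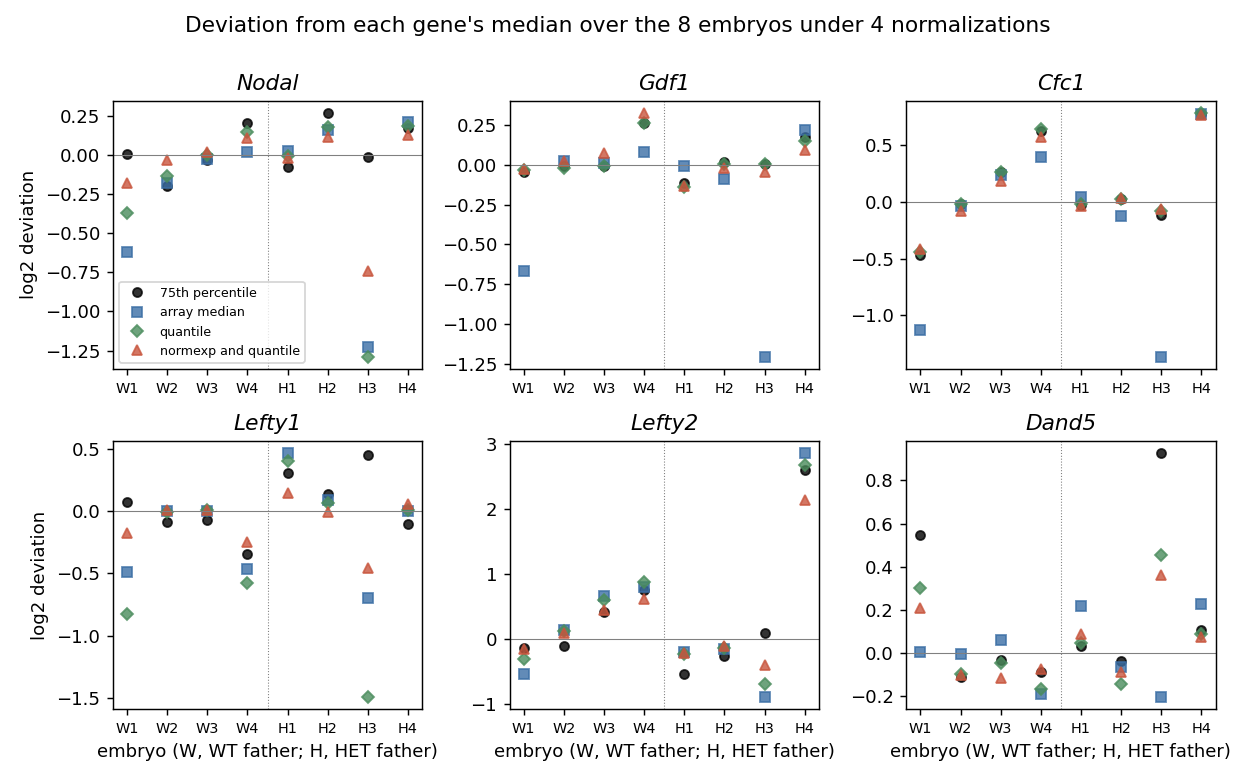
Deviation of each gene from its median over the 8 embryos (log2) under 4 normalizations, with WT father embryos (W) left and HET father embryos (H) right of the dotted line. The height of Lefty2 in HET father replicate 4 is seen under all 4, while the place of HET father replicate 3 moves from near or above the median to below it for Nodal and Lefty1.

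The reading of HET father replicate 3 depended most on how arrays were made comparable. For Nodal its deviation from the median of the other 7 embryos was -0.02 when scaled to the 75th percentile. This deviation was -1.30 after quantile normalization, -1.25 on median alignment and -0.76 after normexp with quantile normalization. For Lefty1 the same embryo was the highest under the first and deviated from the median of the other 7 by -1.50, -0.70 and -0.46 under the other 3, in that order. HET father replicate 4 kept its place for Lefty2 under all 4, at 6.47-fold, 6.96-fold, 8.02-fold and 4.72-fold above the median of the other 7. Cfc1 in this embryo was 1.73-fold above that median as scaled here and 1.75-fold after quantile normalization.

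The sex of the embryo was compared in a model that also held the father's genotype. Of the 6 genes, 3 were higher and 3 lower in females, 0 passed the test (smallest adjusted p = 0.9999, limma), and 0 of 6 had an unadjusted p under 0.05, where 3.26% of all probes did. Over all probes 11 were called (0.0332%). Nodal was higher in females by 0.13 (SE 0.11; means -3.15 and -3.27), and Gdf1 did not differ in its mean (3.51 in both sexes). The female mean of Lefty2 was 0.60 (SE 0.69) above the male one, and without HET father replicate 4 the difference was -0.13. The others differed by -0.07 (SE 0.15) for Lefty1, -0.04 (SE 0.27) for Dand5 and 0.03 (SE 0.30) for Cfc1. A test of whether the father difference itself differed between the sexes gave no adjusted p under 0.05 at any of the 33095 probes, and its smallest p among the 6 genes was that of Lefty1 (interaction -0.58, SE 0.21, adjusted p = 0.996).

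Finally, the genes whose levels ran most like each of the 6 over the 8 embryos were listed out of 15378 other genes, as a description over few points that share their arrays. Nodal ran most like H2bu2 (r = 0.95) and Sumo2 (0.92). Gdf1 ran most like H1f10 (0.97), 1500009L16Rik (0.97) and Parp9 (0.96), and Cfc1 most like Cyfip2, Gng3 and Sall4 (0.98, 0.98 and 0.95). For Lefty2 the nearest were Skap1 (0.99), Gfra3 (0.94) and Ppp1r1b (0.93), and without HET father replicate 4 their r were 0.94, 0.88 and 0.93. Lefty1 ran most like Mterf4 (0.99), Zdhhc7 (0.96) and Hexa (0.96), and Dand5 most like Pip5kl1 (0.99), Prb1 (0.98) and Odf3l2 (0.98). The genes nearest to Dand5 were, like it, high in WT father replicate 1 and HET father replicate 3, the arrays with the highest median signal.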

How the data were processed

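Total RNA of each embryo was labelled with Cy3 and hybridised to an Agilent 8x60K one-colour array, 1 array for each of the 8 embryos. The authors scanned the slides and read the spots with Agilent Feature Extraction (version 11.0.1.1, per the submitters' processing notes). Spot intensity, as deposited, had the background subtracted and had not been scaled from array to array. A series-wide table, also deposited, repeats these intensity values in rounded form (largest difference 0.497%), and 0 of its sample columns were left unused. A percentile shift is named in the study's methods, but not which percentile.

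Here log2 of the processed signal was taken relative to the 75th percentile of each array, after leaving out control and outlier spots and averaging the spots of a probe. Probes were tested if well above background on at least 4 arrays and above the lowest 20% by mean, which left 33095 of 55681. Groups were compared with limma (version 3.58.1, R 4.3.3, with version 1.17.8 of data.table), with Benjamini-Hochberg adjustment over all tested probes, and a call needed an adjusted p under 0.01 and a 2-fold change. The fit was tested on simulated data. RefSeq accessions were carried by 28685 probes, and 27235 of these found a symbol in a gene list of GRCm38.p6, which served for names only, since the array was designed on mm9. Where a gene had several tested probes the brightest was used. Correlations used all pairings of 8 embryos. Other steps used Python 3.11.15, numpy 2.4.6, pandas 2.3.3 and matplotlib 3.10.9. Signal over background and the number of arrays, not read depth, limit the precision.

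The 6 genes and the lists of related genes were chosen with earlier results of these data known. Named were all 6 genes with all their probes, from each pathway list the 2 tested genes with the largest difference in each direction, and the 3 genes most like each of the 6. Of the genes so chosen, 1 is left unreported. Smad2, Smad3, Smad4, Acvr1c, Dnah5, Noto and the marker genes were named after their values were seen. Replicate numbers did not pair the embryos. Alternatives were other normalizations, background correction, filters, blocks, array weights, other moderation and leaving embryos out.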

Additional observations from a re-analysis of the deposited data

Results flagged for a closer look

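Of 42 sets of 4 values examined (the 6 genes, the summed lists and array measures, in each father group), 7 held an embryo far from the other 3. About 1 in 20 sets, or 2.1 of 42, would by chance if the sets were independent. They share their embryos and arrays, so that the count of 7 cannot be weighed against 2.1. The number given is the gap to the nearest embryo as a share of the whole range of the group. Dand5 was far above the rest in WT father replicate 1 (0.881) and HET father replicate 3 (0.851). Gdf1 was far above the rest in WT father replicate 4 (0.873) and Cfc1 in HET father replicate 4 (0.844). The summed signal of the node, notochord and floor plate markers was also highest in WT father replicate 4 (0.936), at 13.5, where the other 3 embryos reached at most 11.98. Among array measures, HET father replicate 3 had a median probe signal above the others of its group (0.839), and HET father replicate 4 a local background above them (0.981). Lefty2 in HET father replicate 4 did not pass this test, since the other 3 embryos of its group were themselves spread. The values of the arrays moved with those of Dand5, and their part in it was not tested.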

How the results depend on the processing

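No father difference of the 6 genes was called under any of the 22 alternatives run for each, and the smallest adjusted p was 0.546 (Lefty1). Directions were less stable, and the cause was not tested. With the arrays aligned on their medians, which moved the median of all probes by -0.10, the father difference was -0.009 for Nodal and -0.036 for Cfc1, with quantile normalization it was -0.143 for Nodal, and with normexp background correction of the median spot signal followed by quantile normalization (below, normexp with quantile) -0.108 for Nodal. With WT father replicate 1 and HET father replicate 3 both left out it was -0.029 for Cfc1. Array weights moved the difference to 0.204 for Nodal and 0.093 for Dand5, and blocking on the embryo code moved it to 0.186 for Cfc1 and 0.081 for Dand5. Leaving out each embryo in turn gave 0.029 to 0.164 for Nodal, 0.219 to 0.403 for Lefty1, -0.465 to 0.576 for Lefty2, -0.043 to 0.336 for Dand5, -0.082 to 0.039 for Gdf1 and -0.135 to 0.240 for Cfc1. In the sex comparison, median alignment gave 0.074 for Lefty1, 0.103 for Dand5 and 0.146 for Gdf1, quantile normalization 0.233 for Lefty1 and 0.003 for Gdf1, normexp with quantile 0.105 for Lefty1, the table of the whole series 0.004 for Gdf1, and leaving out both arrays named above 0.035 for Dand5 and 0.039 for Gdf1. Leaving out each embryo gave -0.181 to 0.032 for Lefty1, -0.132 to 1.01 for Lefty2, -0.239 to 0.215 for Dand5, -0.062 to 0.083 for Gdf1 and -0.202 to 0.265 for Cfc1.

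The count of probes called between father groups was 0, and 1 without WT father replicate 1, 1 without HET father replicate 4 and 1 with WT father replicate 1 and HET father replicate 3 both left out (0 to 1 over single embryos), none of them a probe of the 6 genes. It was 1440 at an unadjusted p under 0.05. That count became 479 on median alignment, 2628 for normexp with quantile, 685 with embryos of one code blocked at random and 3044 with array weights. It was 900 to 3031 over single embryos left out, lowest without WT father replicate 2 and highest without HET father replicate 3. With no filter on dim probes it was 5333, of which 4527 were higher and 806 lower in the HET father group. In the fit used 661 were higher and 779 lower. With the replicate number as a block the count was 875. The numbers do not pair the embryos (correlations of same-numbered embryos -0.547, -0.045, -0.587 and -0.149), and the block changed no call of the 6 genes. Of the pathway genes, 2 had an unadjusted p under 0.05, against 0 on median alignment and with the embryo code block, 1 with no filter on dim probes, 1 with the replicate block, 4 with array weights, 4 without WT father replicate 1 and HET father replicate 3, and 1 to 5 over single embryos left out. On median alignment the median difference of the list of processing genes, receptors and transducers was -0.076 and that of the cilia list -0.096. Sex calls, 11 in the fit used, were 5 with no filter on dim probes, 0 where all 8 arrays had to be above background, 0 without both arrays named above and 1 to 7 over single embryos left out. Pairs of the 6 genes with an adjusted p under 0.05 numbered 4 on median alignment, 1 with quantile normalization and 1 for normexp with quantile, against 0, and r between Lefty1 and Gdf1 turned to 0.696 on median alignment.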
